A study of Mus musculus with 16 samples.

Results

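The gene set examined here holds 38 genes for cytokines, chemokines, their receptors and the innate signalling proteins behind them, out of 34607 gene names on the array. Members were found by the gene name printed beside each probe, and 48 of the 55681 non-control probes carried one of the 38 names. By role the set holds 22 ligands (8 interleukins and TNF, 12 chemokines and 2 growth-factor cytokines), 9 receptors (5 cytokine receptors and 4 Toll-like receptors) and 7 adaptor, NF-kB, inflammasome and response genes. RNA came from the hypothalamus of 8 KO chimera mice and 8 control mice, with 1 array for each animal. KO chimeras were C57BL/6J hosts, lethally irradiated with 950 Rad, that received whole marrow from adrenergic receptor double-knockout donors, in which Adrb1, the gene of the beta 1 receptor, is a deleted gene. Marrow was given once behind the eye, in a ratio of 1 (donor) to 4 (C57BL/6J), and the mice recovered for 2 to 3 months. Whether this ratio means cells mixed before injection or donors to recipients cannot be read from the labels. Labels of the control mice carry the same irradiation, marrow and recovery text and name no donor strain, so what marrow the controls received cannot be read from them. Age and sex are not given in the sources used here. In a chimera the host's own neurons and glia keep the deleted genes, and only cells that descend from marrow can lack them.

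Cytokines are secreted signals that act on nearby cells through membrane receptors, and chemokines are the branch of the family that draws leukocytes along a gradient. Toll-like receptors sense microbial molecules and damaged tissue. Most of them, though not Tlr3, pass the signal through the adaptor Myd88 to the transcription factor NF-kB (Rela, Nfkb1). NF-kB in turn drives inflammatory cytokine genes. Interleukin 6 and its relatives signal through Il6st to STAT3, which induces the feedback inhibitor Socs3. In the resting hypothalamus most of the inflammatory ligands are known to be scarce, while Cx3cl1 and Il34, made by neurons and acting on microglia, are made constitutively.

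The arrays held between 27276 and 43248 spots well above background. The lowest count was that of KO chimera replicate 1, against 34935 or more on every other array, and only 14 of the 26 tested members were well above background there, against 21 to 26 elsewhere. The highest was that of control replicate 8, whose spike-in curve had an R2 of 0, against 0.966 or more on every other array. Both were on 1 slide. Where leaving out KO chimera replicate 1 turned the sign of a member's difference or moved it by over 1.5 times, the value without it is given. None of those differences passed either way: without it Ccl2 differed by -0.020 against -0.06 with it, Ccl5 by 0.0046 against -0.09, Cxcl12 by 0.05 against 0.11, Tgfb1 by -0.05 against -0.09, Il1r1 by -0.10 against -0.26, Tnfrsf1a by -0.0023 against -0.02, Tlr2 by -0.07 against -0.11, Tlr3 by 0.019 against -0.09, Tlr7 by 0.07 against -0.14, Myd88 by -0.0094 against -0.02, Rela by -0.10 against -0.06, Tlr4 by -0.08 against -0.04, Nlrp3 by -0.020 against 0.05 and Casp1 by -0.09 against -0.17. These are log2 differences, KO chimera minus control. Of 20 hypothalamus markers 19 were measured and none passed the test between groups. An unadjusted p under 0.05 was found for 4 of the 19, against 20.7% of all genes. All 4 were higher in KO chimeras, against 8.49% of all genes in that direction. Differences were positive for 13 of the 19 and negative for 6, against 50.1% negative over all genes, with a median log2 difference of 0.15. The summed level of these markers ran from 430 to 815 in KO chimeras and from 525 to 738 in controls, in units of the array's 75th percentile. Adrb1, which the donor lacks and the host keeps, was measured in this host tissue. A probe for Adrb1 had a lowest, median and highest level of -1.71, -1.49 and -1.17 in KO chimeras and -1.06, -0.82 and -0.13 in controls, lower by a log2 difference of -0.75 ± 0.14 (SE, adjusted p = 0.0181), while a second Adrb1 probe differed by -0.01 ± 0.09 (adjusted p = 0.965). Levels here and below are log2 signal minus the log2 of the array's own 75th percentile, so a level of 0 lies at that percentile, and p-values are those of limma's moderated test with Benjamini-Hochberg adjustment over all rows fitted. With 1 array for each of the 8 animals in a group, spread between samples holds differences between mice and array noise. The design cannot separate these.

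Promoter windows from RefSeq (GRCm38.p6) were found for 28 of the 38 members, as 32 windows that cover the 250 bases before a gene's start. Short patterns were searched on both strands: the kappa B pattern of NF-kB (GGG, any 2 bases, then TTTCC), the STAT pattern TTCNNNGAA, and the AP-1 pattern TGANTCA. The kappa B pattern stood in the windows of 6 members (Csf1, Cxcl1, Cxcl2, Il1rn, Il6 and Tlr3), and in 1.41% of all 32851 mouse windows. The STAT pattern stood in those of 4 members (Myd88, Socs3, Tnfrsf1a and Tnfrsf1b) against 7.02% of all windows, and the AP-1 pattern in those of 4 (Cxcl10, Il1a, Il1rn and Il6) against 6.75%. A match describes letters only and is no evidence that a factor binds. The windows of the member nearest to the threshold (Ccl12), of the feedback inhibitor Socs3, and of 3 genes with a kappa B match are shown 5' to 3' with matches in capitals.
Ccl12, chr11:82101595-82101844, plus strand, no match: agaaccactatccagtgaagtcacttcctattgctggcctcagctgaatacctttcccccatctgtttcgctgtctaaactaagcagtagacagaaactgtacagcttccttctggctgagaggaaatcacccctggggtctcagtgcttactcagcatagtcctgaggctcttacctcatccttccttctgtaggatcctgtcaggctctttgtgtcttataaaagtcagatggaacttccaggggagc
Socs3, chr11:117969367-117969616, minus strand, 1 STAT match that begins 154 bases before the start: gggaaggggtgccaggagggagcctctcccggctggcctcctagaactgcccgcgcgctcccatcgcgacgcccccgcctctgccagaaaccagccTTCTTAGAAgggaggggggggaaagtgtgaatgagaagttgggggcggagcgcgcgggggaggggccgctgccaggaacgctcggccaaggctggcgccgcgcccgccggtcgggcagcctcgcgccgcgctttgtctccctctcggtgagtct
Csf1, chr3:107760470-107760719, minus strand, 1 kappa B match at 154 bases: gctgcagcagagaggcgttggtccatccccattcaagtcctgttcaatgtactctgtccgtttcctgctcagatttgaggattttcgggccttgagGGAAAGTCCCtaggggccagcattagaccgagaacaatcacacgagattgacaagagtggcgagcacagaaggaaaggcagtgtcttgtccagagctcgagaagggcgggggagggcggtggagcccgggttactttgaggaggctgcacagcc
Cxcl1, chr5:90890995-90891244, plus strand, 2 kappa B matches at 89 and 71 bases: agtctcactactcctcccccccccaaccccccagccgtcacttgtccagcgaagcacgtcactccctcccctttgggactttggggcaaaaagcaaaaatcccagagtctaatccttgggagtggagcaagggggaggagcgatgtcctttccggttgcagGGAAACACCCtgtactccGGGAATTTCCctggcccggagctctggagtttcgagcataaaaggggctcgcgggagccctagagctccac
Il6, chr5:30012864-30013113, plus strand, 1 kappa B match at 44 bases and 1 AP-1 match near the 5' end of the window: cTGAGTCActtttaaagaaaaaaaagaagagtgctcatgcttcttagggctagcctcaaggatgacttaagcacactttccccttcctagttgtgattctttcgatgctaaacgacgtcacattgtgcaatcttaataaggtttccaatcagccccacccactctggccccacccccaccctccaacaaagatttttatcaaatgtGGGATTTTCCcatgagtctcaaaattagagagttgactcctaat

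Il1a, Il1b, Il6 and Tnf, the classical inflammatory ligands, were not well above background on any array of either group. Of the 38 members 14 were well above background on all 16 arrays, 14 on some and 10 on none. Those 10 were Il1a and Il1b (the interleukin 1 ligands), Il1rn (their receptor antagonist), Il6, the anti-inflammatory Il10, Tnf, the monocyte attractant Ccl7, the neutrophil attractants Cxcl1 and Cxcl2, and Ptgs2 (inducible cyclooxygenase). Among all single probes of the array 43.7% were well above background on every array and 19.4% on none; these shares count probes, while the members are counted as genes, so the shares are not alike in kind. By role, 9 of 22 ligands were on no array, against 0 of 9 receptors and 1 of 7 signalling genes. Cxcl1 and Il6, whose windows hold the kappa B pattern shown above, are thus among the genes with no measured level, while Csf1, with the same pattern, was well above background on every array. A probe below background on all arrays gives no difference between groups, and none is stated for these genes.

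**Figure D1:**
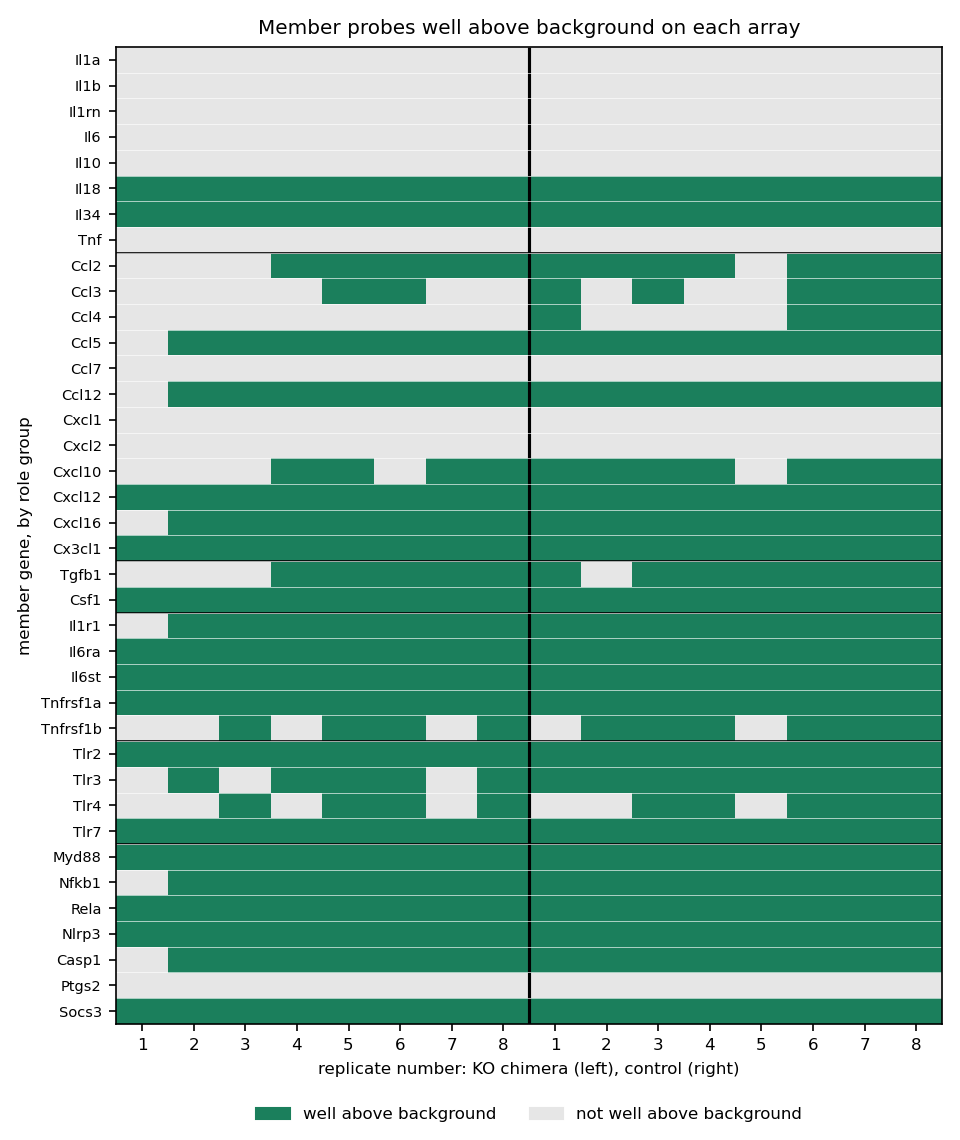
Rows are the 38 members in role groups (interleukins and TNF, chemokines, growth-factor cytokines, cytokine receptors, Toll-like receptors, signalling), columns the 8 KO chimera arrays and then the 8 control arrays. Green marks a probe well above background (where a gene has several probes, the brightest that passed the filter, otherwise the first); 10 genes are grey on all 16 arrays, and KO chimera replicate 1 has 14 green rows.

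The macrophage inflammatory chemokines Ccl3 and Ccl4, which attract monocytes and T cells, were detected on too few arrays for the test, which required 8. With a looser filter of 4 arrays both entered the fit, and 0 of 28 members passed. At an unadjusted p under 0.05 there were 7 of the 28, against 5390 of 25934 genes under that filter. Ccl3 was well above background on 2 of 8 KO chimera arrays and 5 of 8 control arrays. Its lowest, median and highest levels were -7.42, -5.55 and -4.56 in KO chimeras and -6.10, -4.41 and -3.55 in controls. Ccl4 was well above background on 0 of 8 KO chimera arrays and 4 of 8 control arrays, with levels of -7.17, -6.07 and -4.50 in KO chimeras and -6.36, -4.82 and -3.63 in controls. All 8 KO chimeras were below the control median for Ccl3 and 7 for Ccl4, but the groups overlapped for both genes. No fold is given for Ccl4, since its lower bound came out under 1.

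Among the 26 members tested, none passed the adjusted threshold of 0.05, while 933 of 24360 genes (3.83%) did, 250 of them higher in KO chimeras (1.03%) and 683 lower (2.8%). Of the 24360 rows counted as genes 16880 carried a current gene symbol, and the others stand under the name printed beside the probe. Shares over all genes, here and elsewhere, count both kinds. At an unadjusted p under 0.05 there were 6 members of 26, against 20.7% of all genes. These were Ccl12, Il34, Il6st, Nfkb1 and Socs3, with positive differences, and Cx3cl1, with a negative one; the background share was 8.49% for higher genes and 12.2% for lower ones. In no member were the groups free of overlap, against 0.956% of all genes. Differences were negative for 18 of 26 members, against 50.1% of all genes, and the median log2 difference was -0.08, against -0.00035 over all genes. Without the 2 arrays of the shared slide 14 of 26 were negative, and with the alternative background correction (normexp) 11 of 26.

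The intervals show which sizes of change the data leave possible. For 21 of 26 members (80.8%) the 95% interval lay within 1.5-fold in either direction, as it did for 79.7% of all genes. Cxcl10, an interferon-induced T cell attractant, was the 1 member whose interval went beyond 2-fold, with a log2 difference of -0.38 (95% interval -1.46 to 0.71). The other 4 wider ones were Ccl12, Tlr7, Il1r1 and Socs3. Spread between arrays of a group had a median pooled SD of 0.285 over the tested members and 0.205 over all genes tested. It was smallest for the adaptor Myd88, at 0.0905, and largest for Cxcl10, at 1.12. The Cxcl10 probe was well above background on only 4 of 8 KO chimera and 7 of 8 control arrays. Its lowest value, -7.36 on KO chimera replicate 6, was not well above background. The SD and interval of Cxcl10 thus include readings near the floor.

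**Figure D2:**
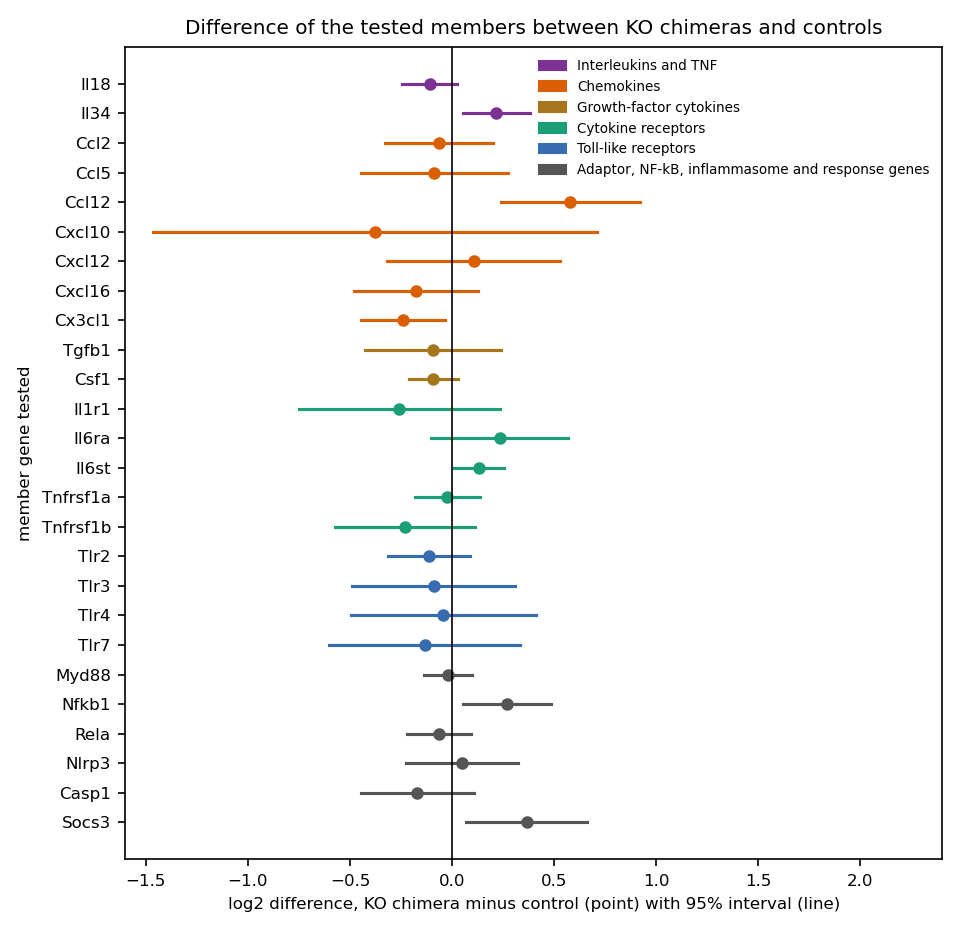
Each row is 1 of the 26 tested members, coloured by role group; the point is the log2 difference, KO chimera minus control, and the line its 95% interval. The highest point is Ccl12 at 0.58 and the lowest Cxcl10 at -0.38; intervals of 6 members leave out 0, and none passed after adjustment over all genes.

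Of the interleukins and TNF, only Il34 and Il18 were tested. Il34, a neuronal ligand of the colony-stimulating factor 1 receptor that microglia need, had a lowest, median and highest level of 1.31, 1.34 and 1.80 in KO chimeras and 1.06, 1.14 and 1.43 in controls. All 8 KO chimeras were above the control median, and the single value of 1.80 belonged to KO chimera replicate 1. The log2 difference was 0.22 ± 0.08 (SE, 8 against 8, adjusted p = 0.121), and 0.16 without that animal (adjusted p = 0.148). Il18, the interleukin 1 relative that is released after cleavage by Casp1, had levels of 1.08, 1.32 and 1.46 in KO chimeras and 1.26, 1.40 and 1.67 in controls. The groups overlapped over most of their range, with a log2 difference of -0.11 ± 0.06 (adjusted p = 0.348).

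Ccl12 came closest to the threshold. This chemokine attracts monocytes through Ccr2 and lies beside Ccl2 and Ccl7 on chromosome 11. Its lowest, median and highest levels were -2.56, -1.74 and -1.15 in KO chimeras and -2.54, -2.41 and -1.95 in controls. Of the KO chimeras 6 were above the highest control, 1 was within the control range, and KO chimera replicate 1, the array with the fewest spots above background, was the lowest of all 16 and was not well above background. The log2 difference was 0.58 ± 0.16, a 1.49-fold higher mean with a 95% interval of 1.18 to 1.89 (adjusted p = 0.0537, exact two-sided permutation p = 0.00559 before any adjustment). Without KO chimera replicate 1 it was 0.69 ± 0.13 (adjusted p = 0.0182), and without both arrays of that slide 0.68 ± 0.14 (adjusted p = 0.0234). Over 34 alternatives the difference was positive each time and passed in 7, with adjusted p between 0.0161 and 0.42. Its receptor gene Ccr2 was not well above background on enough arrays to be tested.

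Of the neighbours of Ccl12 named above, Ccl2 did not pass the test and Ccl7 could not be tested. Ccl2, the main monocyte attractant of that cluster, had levels of -4.67, -4.26 and -3.97 in KO chimeras and -4.65, -4.21 and -3.85 in controls, a log2 difference of -0.06 (95% interval -0.33 to 0.20, adjusted p = 0.813), and Ccl7 had no measured level. The Ccl2 probe was well above background on 5 of 8 KO chimera and 7 of 8 control arrays, so its difference includes readings near the floor. Among the other chemokines Ccl5, which draws T cells and monocytes, differed by -0.09 (adjusted p = 0.812). Whether Ccl12 and Ccl2 differ in their response was not tested.

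Cx3cl1, the neuronal membrane chemokine that signals to microglia through Cx3cr1, was the 1 member with a negative difference at an unadjusted p under 0.05. Its levels were 4.56, 4.82 and 5.08 in KO chimeras and 4.77, 5.09 and 5.36 in controls. All 8 KO chimeras were below the control median and 3 were below the lowest control. The log2 difference was -0.24 ± 0.10 (adjusted p = 0.167). The remaining chemokines were Cxcl12, the homing signal for haematopoietic and neural cells (0.11, adjusted p = 0.804), and Cxcl16, a membrane-bound ligand of Cxcr6 (-0.18, adjusted p = 0.514). For Cxcl16 all 8 KO chimeras were below the control median of -2.57, but the lowest of all 16 values was a control.

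The growth-factor cytokines did not pass either. Csf1, the second ligand of the colony-stimulating factor 1 receptor, had levels of 0.58, 0.71 and 0.90 in KO chimeras and 0.70, 0.81 and 0.95 in controls. Of the KO chimeras 4 were below the lowest control, and the log2 difference was -0.09 ± 0.06 (adjusted p = 0.365). Over 35 alternatives the Csf1 difference lay between -0.39 and -0.03 and passed in 0, with a lowest adjusted p of 0.0649. Tgfb1, which keeps microglia in their resting state, had levels of -4.93, -4.18 and -3.69 in KO chimeras and -4.48, -4.10 and -3.82 in controls, with a log2 difference of -0.09 ± 0.16 (adjusted p = 0.78). Its probe was well above background on 5 of 8 KO chimera and 7 of 8 control arrays, so the Tgfb1 difference includes readings near the floor.

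**Figure D3:**
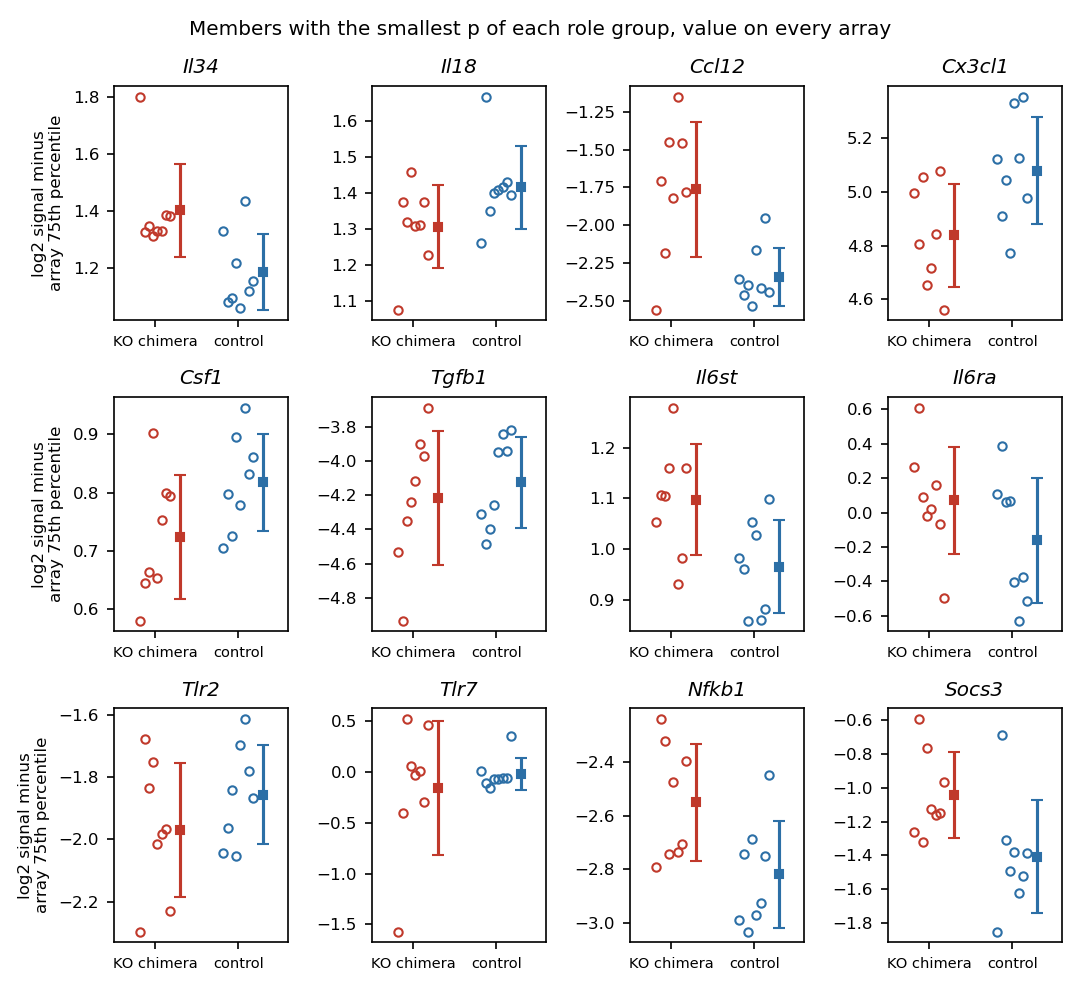
Each panel shows 1 of the 12 members with the smallest p of their role group; open circles are single arrays (KO chimeras left, controls right, in order of replicate number), and squares with bars are the mean and SD of 8. Vertical axes are log2 signal minus the array's 75th percentile and differ between panels. In Ccl12 6 KO chimeras lie above every control, and in Socs3 a single control, replicate 2, lies far above the other 7.

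All 9 receptors were tested and none passed, with 5 of them well above background on all 16 arrays and 4 on some. Il6st, the signal-transducing chain shared by the interleukin 6 family, had levels of 0.93, 1.11 and 1.28 in KO chimeras and 0.86, 0.97 and 1.10 in controls. Of the KO chimeras 5 were above the highest control, and the log2 difference was 0.13 ± 0.06 (adjusted p = 0.214). Il6ra, the chain that binds interleukin 6 itself, had levels of -0.49, 0.06 and 0.61 in KO chimeras and -0.63, -0.16 and 0.38 in controls, with a log2 difference of 0.23 ± 0.16 (adjusted p = 0.426). Both chains of the receptor thus had positive differences that did not pass. The interleukin 1 receptor Il1r1 differed by -0.26 (adjusted p = 0.556), and the TNF receptors Tnfrsf1a and Tnfrsf1b by -0.02 (adjusted p = 0.893) and -0.23 (adjusted p = 0.441). Tnfrsf1b was well above background on only 4 of 8 KO chimera and 6 of 8 control arrays, so its difference includes readings near the floor.

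The 4 Toll-like receptors all had small negative differences. Tlr2, which recognises bacterial lipopeptides, had levels of -2.30, -1.97 and -1.68 in KO chimeras and -2.05, -1.85 and -1.61 in controls, with a log2 difference of -0.11 ± 0.09 (adjusted p = 0.52). Tlr7, the sensor of single-stranded RNA, had levels of -1.57, -0.01 and 0.52 in KO chimeras and -0.16, -0.07 and 0.35 in controls. The value of -1.57 was that of KO chimera replicate 1, and the next lowest KO chimera was at -0.40. Its log2 difference was -0.14 ± 0.22 (adjusted p = 0.768), and 0.07 without that array (adjusted p = 0.813), so the sign rests on 1 array. Tlr3 (double-stranded RNA) and Tlr4 (lipopolysaccharide) differed by -0.09 (adjusted p = 0.822) and -0.04 (adjusted p = 0.931). Tlr3 was well above background on 5 of 8 KO chimera and 8 of 8 control arrays, and Tlr4 on only 4 and 5. The differences of both thus include readings near the floor.

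Of the signalling genes 6 of 7 were tested, and Socs3 and Nfkb1 had the smallest p-values. Socs3, the feedback inhibitor whose promoter window with its STAT pattern is shown above, had levels of -1.32, -1.14 and -0.59 in KO chimeras and -1.85, -1.44 and -0.69 in controls. All 8 KO chimeras were above the control median, and 6 of 8 controls were below the lowest KO chimera; control replicate 2, at -0.69, lay far above the other controls, whose highest was -1.31. The log2 difference was 0.36 ± 0.14, or 1.29-fold (adjusted p = 0.151), and without control replicate 2 it was 0.47 (adjusted p = 0.04). Nfkb1, the p105 and p50 subunit of NF-kB, had levels of -2.79, -2.59 and -2.24 in KO chimeras and -3.03, -2.84 and -2.45 in controls. All 8 KO chimeras were above the control median, with a log2 difference of 0.27 ± 0.10 (adjusted p = 0.146). The other NF-kB subunit Rela (-0.06, adjusted p = 0.658), Myd88 (-0.02, adjusted p = 0.877), the inflammasome sensor Nlrp3 (0.05, adjusted p = 0.864) and the inflammasome protease Casp1 (-0.17, adjusted p = 0.483) also stayed short of the threshold. The Myd88 interval, -0.14 to 0.10, was the narrowest of the set.

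Arrays lay on 6 slides scanned on 2 days, and both groups were present on 5 of the slides and on both days, with 4 arrays of each group a day. Within slides the difference of Ccl12 was 0.69, 0.44, 0.71 and 0.76 on slides 1, 3, 5 and 6 and -0.12 on slide 4, which held KO chimera replicate 1 and control replicate 8. For Socs3 it was positive on all 5 slides, between 0.13 and 0.61, and for Il34 between 0.01 and 0.65. The Il34 value of 0.65 was that of slide 4. Such within-slide differences rest on few animals. On slides 4 and 5 a lone animal of each group was compared. Slide 1 had a single control and slide 3 a single KO chimera. The genes compared here were also picked by their p over the same arrays, so mostly matching signs are no separate test. Nfkb1 was positive on 4 slides and at -0.34 on slide 4, Cx3cl1 negative on 4 and at 0.02 on slide 4. Il6st was positive on 3 slides, at -0.04 on slide 4 and at -0.05 on slide 5, and differed by 0.04 on scan day 1 and 0.22 on scan day 2. By scan day Ccl12 differed by 0.53 and 0.63, Socs3 by 0.25 and 0.48, Il34 by 0.35 and 0.09, and Nfkb1 by 0.18 and 0.36, day 1 before day 2. Within a single day no gene of the set passed, and of all genes 0 passed on day 1 (2837 at an unadjusted p under 0.05) and 7 on day 2. With slide as a fixed block 0 members passed, and with slide as a random block 1 did, Ccl12 (0.58, adjusted p = 0.0435).

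**Figure D4:**
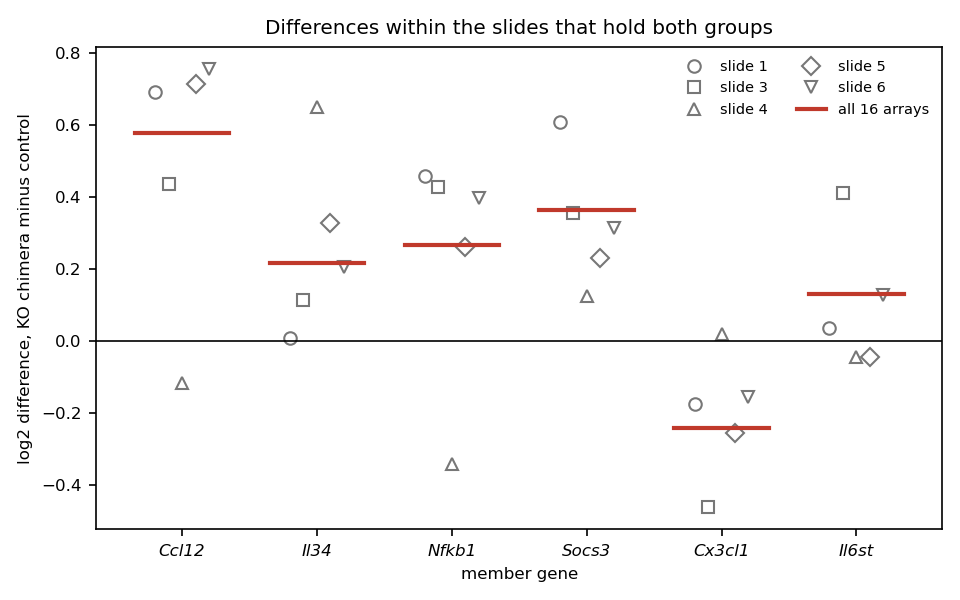
Open symbols are the differences (vertical axis, log2, KO chimera minus control) within each of the 5 slides that hold both groups, for the 6 members (horizontal axis) with an unadjusted p under 0.05; the red line is the difference over all 16 arrays. Slide 4 stands apart for Ccl12 and Nfkb1, and Socs3 is above 0 on every slide. Symbols of slides 4 and 5 each compare a lone animal of either group.

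Some members had more than 1 probe, and their probes did not all give the same difference. Past the filter on dim probes, 6 members had 7 further probes, of which 2 had the opposite sign from the brightest probe that represents the gene. With every probe fitted as its own row, 917 of 35140 probes passed (2.61%), 638 of them lower in KO chimeras (1.82%), and among the members' 33 rows 1 did, a second probe of Tnfrsf1a. Tnfrsf1a encodes the main death-domain receptor of TNF. The second probe, printed 10 times on each array, had a lowest, median and highest level of 0.05, 0.30 and 0.46 in KO chimeras and 0.43, 0.52 and 0.64 in controls. Of the KO chimeras 7 were below the lowest control and 1 was not. Its log2 difference was -0.26 ± 0.06 (adjusted p over all probes = 0.0444), against -0.02 ± 0.08 (adjusted p = 0.896) for the brighter probe, whose median was 1.62 in KO chimeras and 1.63 in controls. The call held in 9 of 34 alternatives, and leaving out any single array other than KO chimera replicate 4 or control replicate 8 ended it, with adjusted p up to 0.091. The brighter probe, at chr6:125311922-125311981 (mm9, plus strand), and the fainter one, 454 bases further 3' at chr6:125312376-125312435, are given by position, and the sequence of the brighter is printed with that of an Nfkb1 probe because the difference depends on which probe is read.
Tnfrsf1a, brighter probe: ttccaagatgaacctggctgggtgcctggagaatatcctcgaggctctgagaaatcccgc
Nfkb1, brighter probe, chr3:135254550-135254609 (mm9, minus strand): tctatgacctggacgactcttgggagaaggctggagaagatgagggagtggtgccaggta

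For Nfkb1 the second probe lies 6929 bases further 3' in the genome and pointed the other way. Its levels were -4.36, -3.10 and -2.83 in KO chimeras and -3.22, -2.93 and -2.32 in controls, with the value of -4.36 on KO chimera replicate 1. The log2 difference was -0.37 ± 0.19 (adjusted p = 0.298), against 0.27 ± 0.10 for the brighter probe. Without KO chimera replicate 1 the fainter probe differed by -0.21 (adjusted p = 0.412), and with normexp by -0.04 (adjusted p = 0.882), so no direction can be given for Nfkb1 as a gene. Csf1 had 2 fainter probes at -0.52 ± 0.17 (adjusted p = 0.0935) and -0.56 ± 0.19 (adjusted p = 0.117), against -0.09 ± 0.06 for its brightest, and they lie 4217 and 4188 bases nearer to the gene's start. With normexp both Csf1 differences shrank, to -0.07 (adjusted p = 0.819) and -0.06 (adjusted p = 0.844), against -0.09 for the brightest probe. Of the KO chimeras 4 and 6 were below every control for these probes. For Tlr7 the second probe gave -0.50 ± 0.17 (adjusted p = 0.12), against -0.14 ± 0.22, and -0.14 with normexp. Cxcl12 had a second probe at 0.23 ± 0.19 (adjusted p = 0.51), the same sign as the brighter one, and that of Nlrp3 was at -0.02 ± 0.27 (adjusted p = 0.97). Different probes can read different transcript ends, and whether they did so here was not tested.

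**Figure D5:**
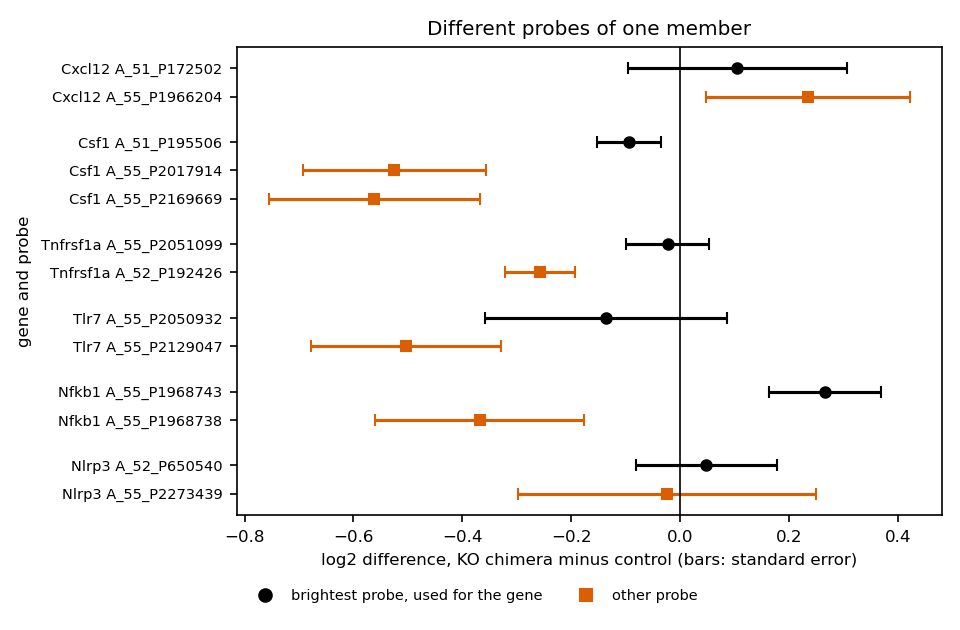
Points are log2 differences, KO chimera minus control, with standard errors, for the 13 probes of the 6 members that had more than 1 probe past the filter; black circles are the brightest probe of a gene and orange squares the others. Tnfrsf1a and Csf1 have fainter probes further below 0 than the brightest, and the 2 Nfkb1 probes lie on opposite sides of 0.

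Other genes of the same pathways were read from the same fit, and 5 of 136 tested passed, 4 lower and 1 higher, against 3.83% of all genes. None of 25 in Toll-like and interleukin 1 receptor signalling to NF-kB passed, and none of 20 in JAK-STAT signalling, 12 in prostaglandin synthesis and reception, 12 other pattern receptors or 8 chemokine receptors. The genes with the smallest p of these lists were Tnip1, an inhibitor of NF-kB signalling (-0.19, adjusted p = 0.0547), Socs7, a relative of Socs3 (-0.21, adjusted p = 0.0505), the constitutive cyclooxygenase Ptgs1 (-0.32, adjusted p = 0.0533), the lipopolysaccharide-binding protein gene Lbp (0.68, adjusted p = 0.11) and Cx3cr1, the receptor for Cx3cl1 (-0.25, adjusted p = 0.0801). The sign of Cx3cr1 turned when its probes were averaged (0.04, adjusted p = 0.769). In these lists, of 25, 20, 12, 12 and 8 tested, 5, 6, 2, 3 and 3 genes had an unadjusted p under 0.05, against 20.7% of all genes.

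The pathway genes that passed were the following. Ccl6, a chemokine of myeloid cells in rodents, had levels of -3.55, -3.15 and -2.77 in KO chimeras and -2.80, -2.56 and -2.10 in controls, lower by a log2 difference of -0.64 ± 0.12 (adjusted p = 0.0147). Il33, an alarmin held in the nuclei of glia, had levels of 1.78, 1.89 and 2.17 in KO chimeras and 2.01, 2.27 and 2.72 in controls, lower by -0.42 ± 0.09 (adjusted p = 0.0227). Of the KO chimeras 7 were below the lowest control for Ccl6 and 6 for Il33. Cxcl14, a chemokine made by neurons and epithelia, was lower by -0.35 ± 0.08 (adjusted p = 0.0275), with 2.50, 2.80 and 2.96 in KO chimeras and 2.95, 3.14 and 3.41 in controls. Lifr, the leukaemia inhibitory factor receptor that pairs with Il6st, was lower by -0.34 ± 0.08 (adjusted p = 0.0321), with 0.54, 0.94 and 1.25 in KO chimeras and 1.15, 1.27 and 1.42 in controls, but by -0.15 (adjusted p = 0.363) as the mean of its probes. Nlrp1b, an inflammasome sensor, was higher by 0.62 ± 0.14 (adjusted p = 0.0305), with -3.07, -2.73 and -2.38 in KO chimeras and -3.97, -3.27 and -2.98 in controls. With normexp the difference of Ccl6 shrank to -0.22 (adjusted p = 0.418) and that of Nlrp1b to 0.30. Over 34 or 35 alternatives the calls held in 29 for Ccl6, 31 for Il33, 25 for Cxcl14, 21 for Lifr and 21 for Nlrp1b.

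Markers of several other cells and of neighbouring tissue had mostly negative differences, and those of others did not. Over all genes 50.1% of differences were negative, 2.8% passed as lower and 20.7% had an unadjusted p under 0.05. Endothelium was positive in 9 of 12 markers and meninges in 9 of 10, with 0 passing in both. Mural, choroid plexus and pituitary markers also had 0 passing. Microglia, oligodendrocyte, thalamus, neuron and astrocyte markers had 9, 7, 6, 4 and 4 at an unadjusted p under 0.05. Of 18 microglia markers 16 had negative differences and 3 passed, all lower, among them Trem2 (-0.43) and C1qc (-0.36), with a median log2 difference of -0.20. Their summed level was 222 to 320 in KO chimeras (median 257.9) and 205 to 284 in controls (median 257.8), so the sum was not lower. Of 13 oligodendrocyte markers 11 were negative and 4 passed, with a median of -0.25 and a sum of 188 to 342 in KO chimeras and 242 to 363 in controls. Of 13 thalamus markers 12 were negative and 2 passed (Prkcd and Adarb1), with a median of -0.69 and a sum of 34.5 to 77.1 in KO chimeras and 50.5 to 151 in controls. Of 12 neuron markers 9 were negative and 1 passed (Rbfox3, lower by -0.26), with a sum of 338 to 389 in KO chimeras and 387 to 445 in controls. Of 11 astrocyte markers 8 were negative and 1 passed (Fgfr3, lower by -0.34), with a sum of 115 to 131 in KO chimeras and 127 to 149 in controls. Border and infiltrating macrophages gave 5 measurable markers of 12, with 0 passing (1 at an unadjusted p under 0.05), a sum of 0.891 to 1.26 in KO chimeras and 0.343 to 4.19 in controls, with Ccr2 and Cd163 well above background on 0 arrays and no probe for Ly6c2. Neutrophil markers gave 0 of 5 passing (0 at an unadjusted p under 0.05) and lymphocyte markers 0 of 6 (2 at an unadjusted p under 0.05). With the thalamus score as a covariate Ccl12 differed by 0.65 (adjusted p = 0.171), and with the oligodendrocyte score by 0.81 (adjusted p = 0.30). Under either covariate Ccl6, Il33, Cxcl14, Lifr and Nlrp1b kept their sign and did not pass. With the thalamus score they differed by -0.64, -0.37, -0.34, -0.42 and 0.56, in that order, and with the oligodendrocyte score by -0.62, -0.13, -0.22, -0.26 and 0.32. Both covariates were added after the data had been seen, and the part of these cells in the results was not otherwise tested. In bulk tissue, fewer cells of a type and less RNA per cell cannot be told apart.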

How the data were processed

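Arrays were Agilent 1-colour (Cy3) whole-mouse arrays of 60-base probes. The deposited scanner files hold intensity per spot, background-subtracted by the authors with Agilent Feature Extraction 10.7, per the file headers and the submitters' processing notes. The authors' deposited value table is log2; set against the scanner values it ran the same way with a slope of 0.978 to 1.03, array medians lay at 5.21 to 5.26 and values stopped at a floor of 2.2, so it is scaled between arrays by a step the sources used here do not give. It served as an alternative. Here log2 gProcessedSignal was set minus each array's 75th percentile over non-control probes, after removal of outlier spots; replicate spots were then averaged. The fit kept probes whose signal counted as well above background on 8 or more of the 16 arrays, and the brightest probe stood for a gene. KO chimeras were tested against controls with limma 3.58.1 (R 4.3.3) over all genes, Benjamini-Hochberg adjusted, and the script was tested on simulated data. Exact permutation used all 12870 assignments. Members, lists and role groups were chosen with earlier results of these data known. Named genes are the members past the threshold, those without overlap, the 2 of each role group with the smallest p, and per pathway list those past the threshold or else the smallest p. Alternatives covered background correction, scaling, filters, slide, scan day, replicate number, array weights and single arrays left out. The number of arrays limits the precision. Python 3.11.15, pandas 2.3.3 and matplotlib 3.10.9 were used for tables and figures. The donor's other deleted gene is not reported here.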

Additional observations from a re-analysis of the deposited data

Results flagged for a closer look

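Values of single animals were compared with the others of their group in 86 groups of 8, and 12 held a value whose gap to its neighbour was large against the range of the group; chance gives about 1 in 20. KO chimera replicate 1, the array with the fewest spots above background, gave 4 of them: it was high for Il34 (1.80, the others at 1.31 to 1.39) and low for Tlr7 (-1.57, the others at -0.40 to 0.52), for a fainter Csf1 probe (-5.00, the others at -3.81 to -3.33) and for the fainter Nfkb1 probe (-4.36, the others at -3.55 to -2.83). Control replicate 2 gave 5: it was high for Socs3 (-0.69, the others at -1.85 to -1.31), Il18 (1.67, the others at 1.26 to 1.43), Myd88 (-1.17, the others at -1.43 to -1.32) and the same Csf1 probe (-2.67, the others at -3.39 to -3.07), and low for the fainter Nlrp3 probe (-6.23, the others at -4.81 to -3.85). Control replicate 7 was high for Cxcl10 (-2.62, the others at -4.90 to -3.83) and for the fainter Tlr7 probe (-2.53, the others at -3.85 to -3.31), and control replicate 8 for the brighter Tlr7 probe (0.35, the others at -0.16 to 0.01).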

How the results depend on the processing

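Of 35 alternatives, 3 of them (both marker covariates and the loss of slide 4) chosen after seeing the data, most left 0 members passing. The count was 1, Ccl12, with normexp background correction (0.36), slide as a random block, trend and robust settings, array weights and without slide 4, and it was 0 to 1 on leaving out single arrays (Ccl12 without KO chimera replicates 1 or 3, Socs3 without control replicate 2). Genes passing numbered 523 with quantile normalization, 273 with normexp (27 higher, 246 lower), 535 with the deposited values, 598 without a filter, 488 with slide as a fixed block, 0 and 7 within scan days 1 and 2, 9 with the thalamus and 3 with the oligodendrocyte covariate, and 364 to 1030 without single arrays (furthest down without KO chimera replicates 2, 4, 6 and 7 at 443, 617, 403 and 617, and controls 1, 5 and 7 at 542, 364 and 390). More than the main 933 passed with slide as a random block (1274), array weights (1266), trend and robust settings (1244) and scan day as a fixed block (986). The same held with probes above background on all 16 arrays (1264 of 18290 genes) and on at least 4 arrays (1025 of 25934). Pathway genes passing, 5 in all, numbered 2 with quantile normalization or the deposited values, 1 with normexp, 9 with slide as a random block or array weights, 8 with trend and robust settings or without slide 4, 0 within either scan day (18 and 25 at an unadjusted p under 0.05) or with either covariate (23 and 16), and 2 to 8 without single arrays (2 without KO chimera replicate 6 or control replicate 7, 3 without KO chimera replicate 7 or control replicate 5, 8 without control replicate 8). Member probes passing, 1 in all, numbered 0 with quantile normalization, normexp, the deposited values, no filter, slide as a fixed block, the replicate block, within either day or with either covariate, 2 with slide as a random block, trend and robust settings or array weights, and 0 to 1 without single arrays. The replicate numbers did not pair the animals (correlations of deviations -0.07 to 0.24, 2 of 8 best with their own number); the block gave 821 genes, 0 members, 6 pathway genes and -0.26 for the second Tnfrsf1a probe (adjusted p = 0.0509). Signs turned for the following log2 differences, none of which passed. Normexp gave 0.052 for the fainter Nlrp3 probe, 0.092 for Ccl2, 0.038 for Ccl5, 0.077 for Tgfb1, 0.055 for Tnfrsf1b, 0.11 for Tlr3, 0.032 for Tlr4 and 0.020 for Myd88. Quantile normalization gave 0.031 for Tnfrsf1a, 0.0029 for Rela and -0.061 for Nlrp3. The deposited values gave 0.031 for Tnfrsf1a, 0.0019 for Rela and -0.069 for Nlrp3. Array weights gave 0.020 for Tlr3, 0.0053 for Tlr7 and -0.0010 for Nlrp3. The mean of all probes gave -0.050 for Nfkb1 and 0.038 for Cx3cr1. Slide as a fixed block gave -0.0016 for Cxcl12. Scan day 1 alone gave 0.39 for the fainter Nlrp3 probe and 0.14 for Cxcl10. Scan day 2 alone gave 0.014 for Ccl2, 0.084 for Ccl5, 0.085 for Tnfrsf1b, 0.22 for Tlr3, 0.080 for Tlr4, 0.21 for Tlr7, 0.0047 for Myd88 and 0.17 for Casp1. The thalamus covariate gave -0.099 for Cxcl12 and 0.028 for Tnfrsf1a. The oligodendrocyte covariate gave 0.48 for the fainter Nlrp3 probe, 0.13 for Ccl5, -0.045 for Cxcl12, 0.17 for Cxcl16, 0.14 for Tgfb1, 0.24 for Il1r1, -0.089 for Il6ra, 0.044 for Tnfrsf1a and 0.091 for Tlr2. Dropping slide 4 gave 0.0027 for Ccl2, 0.076 for Ccl5, 0.057 for Tlr3 and 0.12 for Tlr7. Leaving out single arrays gave ranges across 0 of -0.27 to 0.074 for the fainter Nlrp3 probe, -0.17 to 0.0046 for Ccl5, -0.16 to 0.019 for Tlr3, -0.23 to 0.067 for Tlr7, -0.020 to 0.11 for Nlrp3, -0.17 to 0.010 for Tgfb1, -0.058 to 0.0050 for Tnfrsf1a, -0.13 to 0.11 for Tlr4, -0.59 to 0.038 for Cxcl10 and -0.041 to 0.0052 for Myd88. The causes were not tested. Signal over background limits the set: 10 members had no measured level.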

Other observations

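Ependyma and tanycyte markers, which line the third ventricle beside the hypothalamus, had a median log2 difference of 0.46 over 12 measured genes. Of these 3 were negative, none passed the adjusted threshold in limma and 6 had an unadjusted p under 0.05. Over all genes the shares were 50.1%, 3.83% and 20.7%, in that order. Their summed level ran from 21.8 to 42.3 in KO chimeras and from 11.6 to 31.0 in controls, in units of the array's 75th percentile. Their part in the results on cytokine genes was not tested.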
